A study of Mus musculus with 9 samples.

Results

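The expression of 40 genes of the lysosome and of autophagy was examined in long-term haematopoietic stem cells (LT-HSCs) of 3 mouse genotypes. The genes were listed by symbol and by what they encode, with earlier results of these data known. Of them, 20 encode lysosomal enzymes, membrane proteins and lipid-handling proteins, and 18 encode the autophagy machinery. The other 2, Tfeb and Tfe3, encode transcription factors that act on both. All 40 were found among the 22322 genes of the deposited table. All 40 also reached the mean of 1 FPKM (fragments normalised to transcript length and library size) over the 9 libraries that was required for testing, which 10866 genes of the table passed.

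Lysosomes are acidic organelles in which hydrolases break down proteins, glycans and lipids, and their membrane carries heavily glycosylated LAMP proteins, transporters and ion channels. Macroautophagy delivers cytoplasm to them: a kinase complex around ULK1 or ULK2 and a lipid kinase complex with Beclin 1 start a cup-shaped membrane, ubiquitin-like conjugation joins ATG8 proteins to its lipids, cargo receptors tie cargo to the ATG8 proteins, and the closed autophagosome fuses with a lysosome. The factors TFEB and TFE3 bind an E-box element in promoters of many of these genes. In haematopoietic stem cells, autophagy and lysosomal activity are known for their part in clearing mitochondria and in maintaining quiescence.

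The mice were C57BL/6, 6 to 8 weeks old, and their marrow cells had been sorted as negative for lineage markers (Lin-), CD48 and CD135 and positive for CD150, Sca-1 and c-Kit. The groups were 3 wild-type (WT) mice, 3 Cxcl10-/- mice, which lack a chemokine gene, and 3 Cxcr3-/- mice, which lack the gene of its receptor. The labels name no agent in any group, nor how the alleles were made or whether the knockouts act in a given cell type only. Each library came from polyadenylated RNA of 500 to 800 cells of 1 mouse, so the n of 3 per genotype counts mice.

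Counts summed to between 12098498 and 17904629 per library. Genes with a count above 0 numbered 12561 to 13910 in Cxcl10-/-, 14510 to 16023 in WT and 14618 to 18346 in Cxcr3-/-. Cxcl10 had 0 counts in each Cxcl10-/- library, against 36, 84 and 3 in WT and 112, 553 and 176 in Cxcr3-/-. Cxcr3 had 8 counts in WT replicate 3 and 0 in the other 8 libraries, so its level could not check the Cxcr3-/- label. The Cxcl10-/- libraries stood apart: mitochondrial transcripts took 3.57 to 4.13% of their counts, against 12.6 to 13.1% in WT and 10.2 to 11.2% in Cxcr3-/-. Across genes, which are not independent replicates, the median correlation of log2(FPKM + 1) was 0.886 among the Cxcl10-/- libraries, 0.968 among WT and 0.954 among Cxcr3-/-.

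The 3 most abundant of the 40 genes belong to the ATG8 family. By mean over the 9 libraries, 3 of the 40 reached 100 FPKM, 14 reached 30 FPKM, 23 reached 10 FPKM and 34 reached 3 FPKM. In WT, Map1lc3b (572 ± 36.3 FPKM, SD, n = 3), which encodes LC3B, stood at percentile 97.9 of all genes tested. Gabarap (209 ± 9.72 FPKM) stood at percentile 94.9 and Gabarapl2 (128 ± 12.1 FPKM) at percentile 92.3, and no other member exceeded percentile 90. The other two ATG8 genes were lower, Gabarapl1 at 38.5 ± 4.81 FPKM and Map1lc3a at 5.21 ± 1.30 FPKM, the latter at percentile 32.5. Among the lysosomal genes Lamp2 led with 77.5 ± 4.07 FPKM, followed by Lamp1 with 46.7 ± 3.03 and the cathepsin gene Ctsl with 38.5 ± 2.96. Lamp2 and Lamp1 did not overlap in WT, whereas the ranges of Lamp1 (44.3 to 50.1 FPKM), Ctsl (35.1 to 40.3) and Ctsz (26.9 to 42.5) lay next to or over each other. The 6 weakest members, each under 3 FPKM on average, were Tfeb, Wipi1, Atg7, Gla, Neu1 and Optn.

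**Figure D1:**
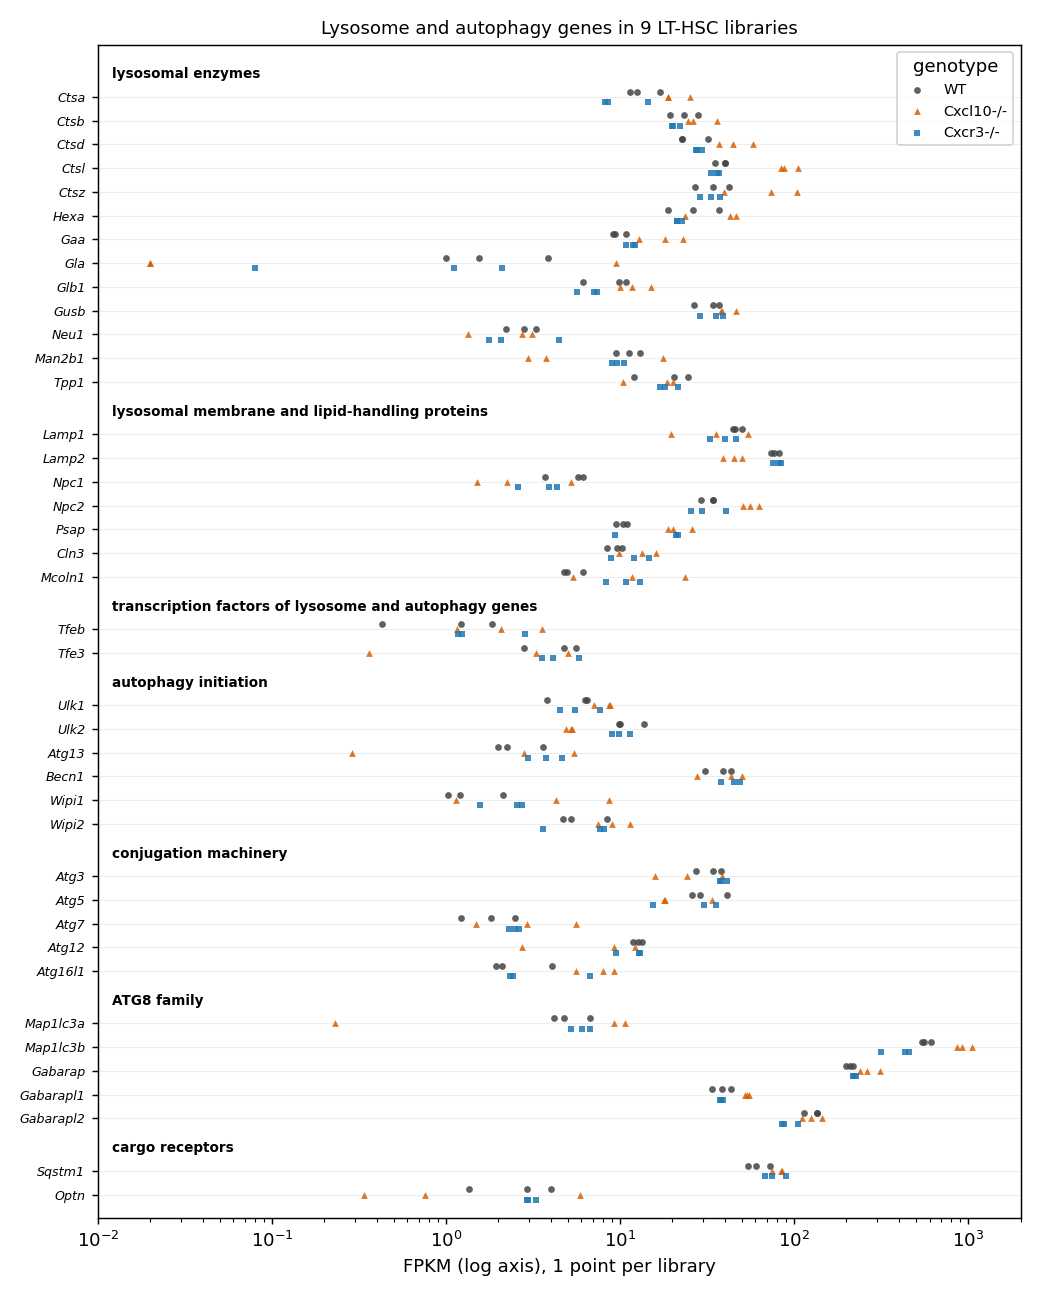
FPKM (log axis) of the 40 genes by role, with 1 point per library: circles are WT, triangles Cxcl10-/- and squares Cxcr3-/-. Map1lc3b lies farthest right in all groups, Ctsl shows the triangles (83.7 to 106 FPKM) right of the other 6 libraries, and Lamp2 shows them to the left (39.1 to 50.2 FPKM).

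In Cxcl10-/- against WT, which addresses what loss of the ligand changes, 3 of the 40 genes passed the test: the protease gene Ctsl rose, and Lamp2 and the autophagy kinase gene Ulk2 fell. All genes were tested with edgeR's quasi-likelihood test and Benjamini-Hochberg adjustment, at an adjusted p under 0.05, and differences below are log2 fold changes with their standard errors from that fit. The 3 of 40 equal 7.5%, near the 7.22% of all 10866 genes called in this comparison (3.52% higher and 3.7% lower). The FPKM of the groups did not overlap for 13 members higher and 2 lower in Cxcl10-/-, 15 of 40, beside 30.3% of all genes tested. On the TMM-scaled CPM (counts per library size) the split was 12 higher and 3 lower for the members, and 1613 higher and 1675 lower for all genes, against 1990 and 1297 in FPKM. In limma on log2(FPKM + 1), 663 of 1008 called genes were higher. With offsets for GC content and transcript length, 640 of 796 were.

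In Cxcr3-/- against WT, which addresses loss of the receptor, none of the 40 genes passed in edgeR, where 0% of all genes were called higher, 0% lower and 0% in either direction. At an unadjusted p under 0.05 there were 2 members, Map1lc3b and Gabarapl2, and 681 genes in all. DESeq2 called 78 genes and limma 0. None of the 40 members was called by limma, and none of the 8 members to which DESeq2 gave an adjusted p by DESeq2, which left the other 32 without one. FPKM did not overlap for 4 members, Mcoln1 and Gabarap higher and Map1lc3b and Gabarapl2 lower, beside 19.8% of all genes. On the TMM scale the members without overlap were 2 lower and 0 higher, and the edgeR difference of Gabarap was -0.06 ± 0.17.

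Cxcr3-/- was also set against Cxcl10-/-. Here 5 of the 40 genes passed: Lamp2 and Ulk2 were higher in Cxcr3-/-, and Ctsl, Map1lc3b and the cholesterol-binding protein gene Npc2 were lower. These 2 higher and 3 lower members stand beside 5.1% and 5.41% of all genes, 10.5% in either direction. FPKM did not overlap for 2 members higher and 13 lower, beside 29.1% of all genes. This comparison shares its Cxcl10-/- libraries with the comparison of Cxcl10-/- and WT, so the values for the same gene in both are not independent.

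**Figure D2:**
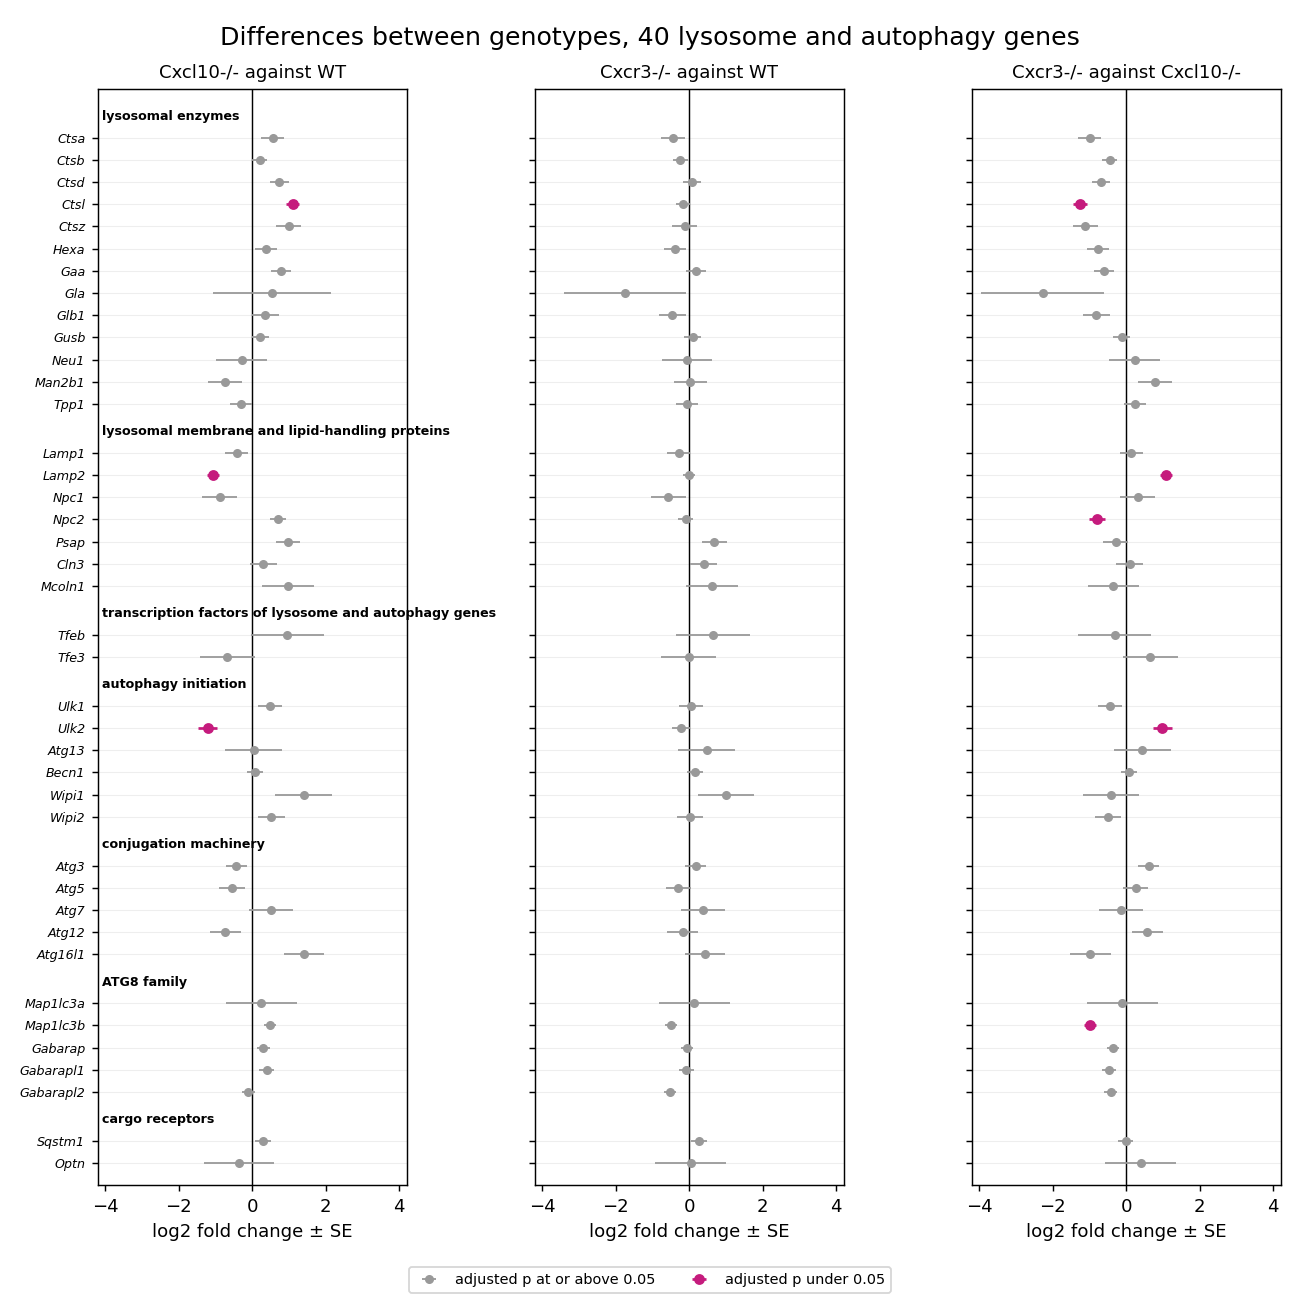
Log2 fold change ± SE (edgeR, 3 libraries per genotype) of the 40 genes in each comparison, with those at an adjusted p under 0.05 in colour. In the left panel Ctsl lies at 1.10, Lamp2 at -1.08 and Ulk2 at -1.21, no gene is coloured in the middle panel, and 5 are coloured in the right panel.

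Of the 13 lysosomal enzyme genes, Ctsl rose in Cxcl10-/-, and the other 12 did not pass. Ctsl (ENSMUSG00000021477) lies at chr13:64359337-64370890 on the minus strand in GENCODE M21 (GRCm38) and encodes cathepsin L, a cysteine protease. It stood at 40.2, 40.3 and 35.1 FPKM in WT, 87.1, 106 and 83.7 in Cxcl10-/- and 33.4, 36.9 and 35.9 in Cxcr3-/-. Every Cxcl10-/- library was above the 6 others, while WT and Cxcr3-/- overlapped. Ctsl was 2.14-fold higher in Cxcl10-/- than in WT (1.10 ± 0.18, adjusted p = 0.00646) and 2.40-fold lower in Cxcr3-/- than in Cxcl10-/- (-1.26 ± 0.18, adjusted p = 0.00246). It passed in both comparisons under all 21 alternatives tried. In GENCODE M21, 26.8% of the exon bases of Ctsl also belong to the antisense gene Gm47123, and whether the counting used strand is not given in the sources used here. In these bulk samples, more or fewer cells of a type and more or less RNA per cell cannot be told apart.

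The other 4 cathepsin genes among the members had higher means in Cxcl10-/- than in WT but missed the threshold. Ctsd, which encodes the aspartic protease cathepsin D, stood at 22.7, 22.7 and 32.1 FPKM in WT and 36.9, 58.0 and 44.6 in Cxcl10-/- (0.74 ± 0.25, adjusted p = 0.0884). Those groups did not overlap. Ctsz, the gene of a carboxypeptidase, spread from 39.7 to 104 FPKM over the Cxcl10-/- libraries against 26.9 to 42.5 in WT (0.99 ± 0.34, adjusted p = 0.0971). Ctsa, whose product also protects other lysosomal enzymes, differed by 0.56 ± 0.32 (adjusted p = 0.31), and Ctsb, the gene of cathepsin B, by 0.20 ± 0.20 (adjusted p = 0.586). Between Cxcr3-/- and Cxcl10-/-, Ctsa, Ctsb, Ctsd and Ctsz were all without overlap and lower in Cxcr3-/-, with adjusted p from 0.0577 for Ctsz to 0.178 for Ctsb. Without Cxcl10-/- replicate 1, Ctsd and Ctsz passed in Cxcl10-/- against WT (0.89, adjusted p = 0.0441, and 1.29, adjusted p = 0.0189). DESeq2 also called Ctsz (adjusted p = 0.0464), as did edgeR with no filter (0.0304). Between the knockouts, DESeq2 called Ctsa (-1.01, adjusted p = 0.029) and Ctsz (0.0147), and no filter called Ctsz (0.00654). GC and length offsets called Ctsb (0.0474), and leaving out Cxcl10-/- replicate 1 called Ctsd (0.0465) and Ctsz (0.0105).

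The 7 glycosidase genes, Gla and Neu1 included, showed no call in any comparison in edgeR, DESeq2 or limma with all libraries. At an unadjusted p under 0.05 in edgeR there was 1 of them in Cxcl10-/- against WT and 3 between the knockouts. Gaa, which encodes acid alpha-glucosidase, the enzyme that degrades glycogen in lysosomes, was at 9.35, 10.9 and 9.17 FPKM in WT, 18.2, 23.0 and 12.8 in Cxcl10-/- and 10.9, 11.9 and 12.3 in Cxcr3-/-. Its Cxcl10-/- libraries lay above both other groups (0.78 ± 0.27, adjusted p = 0.106 against WT). Hexa, Glb1 and Gusb, which encode a hexosaminidase subunit, beta-galactosidase and beta-glucuronidase, differed from WT by 0.37 ± 0.30, 0.36 ± 0.36 and 0.22 ± 0.23 in Cxcl10-/-. Man2b1, the gene of lysosomal alpha-mannosidase, was uneven in Cxcl10-/-, with 3.73, 2.96 and 17.6 FPKM against 9.43 to 13.0 in WT. Without Cxcl10-/- replicate 3, Man2b1 passed against WT (-1.49, adjusted p = 0.036, from -0.74) and between the knockouts (1.53, adjusted p = 0.0294, from 0.78). Hexa also passed between the knockouts without that library (-0.99, adjusted p = 0.0493, from -0.76). The peptidase gene Tpp1 overlapped between all groups.

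Gla and Neu1 were the weak members among the enzymes. Gla, which encodes alpha-galactosidase A, was at 3.86, 1.00 and 1.54 FPKM in WT, at 0.02, 0.02 and 9.50 in Cxcl10-/- and at 1.11, 2.10 and 0.08 in Cxcr3-/-, on 1 to 454 counts per library. A single Cxcl10-/- library thus held nearly all its signal in that group, and the fitted difference of 0.53 ± 1.60 became -6.45 (adjusted p = 0.0357) without Cxcl10-/- replicate 3. Neu1, the gene of a lysosomal sialidase, stayed between 1.34 and 4.44 FPKM in all 9 libraries.

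Among the 7 membrane and lipid-handling genes, Lamp2 fell in Cxcl10-/-. Lamp2 (ENSMUSG00000016534, chrX:38401357-38456454, minus strand) encodes a lysosome-associated membrane glycoprotein needed for autophagosome clearance and for chaperone-mediated autophagy. It stood at 81.7, 77.0 and 73.6 FPKM in WT, 39.1, 45.2 and 50.2 in Cxcl10-/- and 82.4, 84.0 and 75.8 in Cxcr3-/-. All Cxcl10-/- libraries lay below the 6 others. The gene was 2.11-fold lower in Cxcl10-/- than in WT (-1.08 ± 0.16, adjusted p = 0.00449) and 2.12-fold higher in Cxcr3-/- than in Cxcl10-/- (1.08 ± 0.16, adjusted p = 0.00311). With offsets for GC content and transcript length both calls ended, at -0.26 (adjusted p = 0.343) and 0.35 (adjusted p = 0.169). Over the 21 alternatives, the adjusted p ran from 1.05e-07 to 0.421 against WT and from 1.22e-07 to 0.241 between the knockouts.

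Ctsl and Lamp2 thus moved in opposite directions in the same libraries. The ratio of their FPKM was 0.492, 0.523 and 0.477 in WT, 2.23, 2.34 and 1.67 in Cxcl10-/- and 0.406, 0.439 and 0.474 in Cxcr3-/-. Ctsl was below Lamp2 in all 6 WT and Cxcr3-/- libraries and above it in the 3 Cxcl10-/- libraries. This ratio was chosen after the values were seen and is a description only.

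Lamp1, the gene of the other major LAMP protein, did not pass. It was at 45.6, 44.3 and 50.1 FPKM in WT, 19.7, 35.8 and 54.1 in Cxcl10-/- and 32.9, 46.4 and 40.2 in Cxcr3-/- (-0.43 ± 0.32, adjusted p = 0.453 in Cxcl10-/- against WT). The Cxcl10-/- libraries covered the whole WT range.

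Npc2 (ENSMUSG00000021242, chr12:84754562-84773152, minus strand) encodes the soluble protein that binds cholesterol in the lysosome and passes it to the membrane protein NPC1. It stood at 34.4, 34.3 and 29.0 FPKM in WT, 55.7, 62.8 and 51.1 in Cxcl10-/- and 29.5, 40.6 and 25.5 in Cxcr3-/-. The Cxcl10-/- libraries were above both other groups. Npc2 was 1.74-fold lower in Cxcr3-/- than in Cxcl10-/- (-0.80 ± 0.21, adjusted p = 0.0307) and missed the threshold in Cxcl10-/- against WT (0.70 ± 0.21, adjusted p = 0.0599). It passed against WT in DESeq2 (adjusted p = 0.0203), with no filter (0.0474) and without Cxcr3-/- replicate 2 (0.0463). The call between the knockouts ended in 6 of 21 alternatives, with adjusted p from 0.00413 to 0.112 over all of them. Those included leaving out WT replicate 2 (adjusted p = 0.054), Cxcl10-/- replicate 2 (0.0621), Cxcr3-/- replicate 1 (0.112) or Cxcr3-/- replicate 3 (0.112).

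Npc1, the partner of NPC2, had a lower mean in Cxcl10-/- (2.99 ± 1.98 FPKM, SD, n = 3) than in WT (5.19 ± 1.29), on libraries that overlapped (-0.89 ± 0.48, adjusted p = 0.284). Without Cxcl10-/- replicate 1 it passed (-1.55, adjusted p = 0.0474). Psap, which encodes the precursor of the saposins, activators of sphingolipid breakdown, was at 10.9, 10.4 and 9.54 FPKM in WT and 18.8, 25.9 and 20.2 in Cxcl10-/-. In Cxcr3-/-, Psap was at 21.0, 9.38 and 21.7 FPKM, so 2 of 3 libraries were in the Cxcl10-/- range and 1 lay just below the lowest WT library. Its adjusted p was 0.0968 in Cxcl10-/- against WT and 0.826 in Cxcr3-/- against WT. Cln3, a gene of a lysosomal membrane protein, and Mcoln1, the gene of a lysosomal cation channel, did not pass either. Mcoln1 was at 4.79 to 6.13 FPKM in WT and at 8.34 to 13.0 in Cxcr3-/- (0.63 ± 0.70, adjusted p = 0.969).

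**Figure D3:**
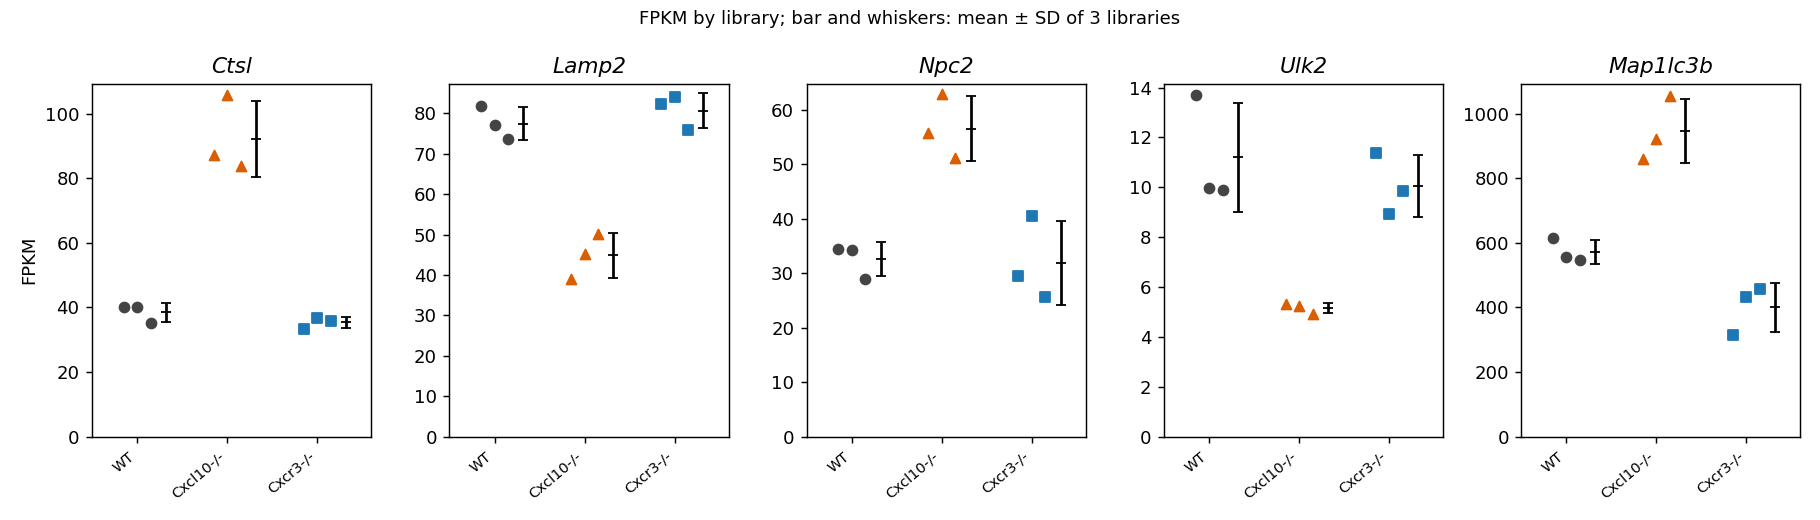
FPKM per library (linear axes from 0) of the 5 members that passed in at least 1 comparison, with mean ± SD of 3 libraries beside each group. The Cxcl10-/- triangles lie above the other groups for Ctsl, Npc2 and Map1lc3b and below them for Lamp2 and Ulk2.

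Tfeb and Tfe3, which encode transcription factors of the MiT/TFE family, were both weak and did not pass. Tfeb was at 0.43, 1.22 and 1.84 FPKM in WT, 1.15, 3.57 and 2.08 in Cxcl10-/- and 1.17, 2.85 and 1.23 in Cxcr3-/-. Tfe3 was at 2.80, 4.74 and 5.57 FPKM in WT, 0.36, 5.03 and 3.30 in Cxcl10-/- and 5.79, 3.58 and 4.10 in Cxcr3-/-. The groups overlapped for both genes, with adjusted p of 0.608 and 0.635 in Cxcl10-/- against WT. The differences were within their SE, at 0.96 ± 1.00 for Tfeb and -0.67 ± 0.75 for Tfe3. Counts per library ran from 10 to 82 for Tfeb and from 13 to 265 for Tfe3.

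Because these factors bind an E-box, its letters were searched in RefSeq promoters (GRCm38.p6, 250 bases before to 50 bases after each start), of which 34 of the 40 members had 1 or more. The core CACGTG was present in 12 of the 34 (35.3%), against 8.09% of all genes in the promoter table. It was in 1054 of 8759 genes tested (12.03%). Of the further genes of these pathways described below, 32 of 181 held it (17.7%). By group it was in 9 of 18 lysosomal members and 3 of 14 autophagy members. The longer TCACGTGA, which contains the core, was in 6 of 34 members (17.6%) against 1.12% of all genes. It was in 203 of 8759 genes tested (2.32%) and in 12 of 181 of those further pathway genes (6.63%). Each motif reads the same on both strands. The letters are shown for these 6 genes, each in a window of 30 bases with TCACGTGA in capitals, 5′ to 3′ on the gene's strand. Ctsa and Gla hold a further copy downstream of the one shown.
Ctsa, chr2:164833749-164833778 (+): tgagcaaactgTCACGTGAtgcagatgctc
Ctsd, chr7:142387908-142387937 (-): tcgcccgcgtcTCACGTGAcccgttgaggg
Gla, chrX:134601215-134601244 (-): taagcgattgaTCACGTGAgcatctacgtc
Cln3, chr7:126583340-126583369 (-): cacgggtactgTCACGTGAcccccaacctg
Mcoln1, chr8:3500462-3500491 (+): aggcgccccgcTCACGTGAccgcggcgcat
Atg3, chr16:45158746-45158775 (+): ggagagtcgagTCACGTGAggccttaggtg
These windows are placed by RefSeq starts. By the GENCODE M21 gene positions, those of Ctsa, Ctsd, Cln3 and Mcoln1 lie inside the gene, and those of Gla and Atg3 lie upstream. Of these 6 genes, 5 are lysosomal and Atg3 belongs to the conjugation machinery. None passed in any of the 3 comparisons in edgeR, and at an unadjusted p under 0.05 there was 1 in Cxcl10-/- against WT, 2 between the knockouts and 0 in Cxcr3-/- against WT. Limma called none of them, and DESeq2 called Ctsa between the knockouts (adjusted p = 0.029). Leaving out 1 Cxcl10-/- library in edgeR called Ctsd, Gla or Atg3, with the values given where these genes are described.

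The 250 bases before the start of the LAMP genes are shown because Lamp2 fell in Cxcl10-/- and Lamp1 did not pass, with CACGTG in capitals.
Lamp1, chr8:13158911-13159160 (+): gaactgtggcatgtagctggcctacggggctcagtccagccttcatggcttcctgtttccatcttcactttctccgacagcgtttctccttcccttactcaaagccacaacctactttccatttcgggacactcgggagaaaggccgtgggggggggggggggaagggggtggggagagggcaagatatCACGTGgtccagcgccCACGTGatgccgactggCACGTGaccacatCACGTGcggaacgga
Lamp2, chrX:38456461-38456710 (-): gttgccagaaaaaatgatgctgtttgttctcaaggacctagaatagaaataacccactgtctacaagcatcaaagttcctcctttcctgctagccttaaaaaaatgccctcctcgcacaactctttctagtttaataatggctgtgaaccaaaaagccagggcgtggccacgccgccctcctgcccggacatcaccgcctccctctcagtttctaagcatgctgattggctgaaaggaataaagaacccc
The Lamp1 window held the core 4 times and had 59.6% GC, and the Lamp2 window held it 0 times and had 47.6% GC. A match is a description of letters, not a site or a cause. The 12 members with CACGTG had a median log2 fold change of 0.52 in Cxcl10-/- against WT, with 9 above 0 and 1 called. The 22 matched members without it had a median of 0.29, with 14 above 0 and 2 called. Ctsl counts among the 12, with its core 236 bases before the RefSeq start, but that start lies 214 bases upstream of the start of 2 of its GENCODE transcripts. The starts of Ctsl-203 and Ctsl-205 lie 233 and 370 bases upstream of the RefSeq start, and that of Ctsl-206 lies 3465 bases downstream.

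In the group of 6 autophagy initiation genes, Ulk2 fell in Cxcl10-/-. Ulk2 (ENSMUSG00000004798, chr11:61775649-61855073, minus strand) encodes a kinase that, with its homologue ULK1, starts autophagy. It stood at 13.7, 9.98 and 9.91 FPKM in WT, 5.31, 5.26 and 4.92 in Cxcl10-/- and 11.4, 8.94 and 9.84 in Cxcr3-/-. The Cxcl10-/- libraries lay close together and below the 6 others. Ulk2 was 2.32-fold lower in Cxcl10-/- than in WT (-1.21 ± 0.25, adjusted p = 0.0164) and 1.98-fold higher in Cxcr3-/- than in Cxcl10-/- (0.99 ± 0.25, adjusted p = 0.0285). Leaving out WT replicate 1 ended the call against WT (-1.01, adjusted p = 0.09), as did leaving out WT replicate 2 (-1.30, adjusted p = 0.0532), within a range of 0.000393 to 0.09 over all alternatives. The call between the knockouts held in 10 of 21 alternatives (0.00579 to 0.156), and ended without WT replicate 2 (adjusted p = 0.0513), Cxcr3-/- replicate 1 (0.103) or Cxcr3-/- replicate 3 (0.077).

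Ulk1 showed no such fall. It was at 3.80, 6.49 and 6.28 FPKM in WT, 7.09, 8.73 and 8.68 in Cxcl10-/- and 4.49, 7.65 and 5.52 in Cxcr3-/- (0.48 ± 0.33, adjusted p = 0.402 in Cxcl10-/- against WT). The ratio of Ulk1 to Ulk2, also chosen after the values were seen, was 0.277 to 0.650 in WT, 1.34 to 1.76 in Cxcl10-/- and 0.395 to 0.856 in Cxcr3-/-. Ulk1 lay above Ulk2 in the 3 Cxcl10-/- libraries and below it in the 6 others.

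The remaining initiation genes did not pass in any comparison. Becn1, the most abundant of the group and the gene of Beclin 1, was at 43.5, 30.7 and 38.8 FPKM in WT, 27.6, 49.9 and 43.3 in Cxcl10-/- and 37.9, 44.9 and 49.2 in Cxcr3-/-, with overlap between all groups. Of its exon bases, 43.9% are shared with the opposite-strand gene Cntd1, itself listed at 0.932 FPKM on average. Wipi1 and Wipi2 encode phosphoinositide-binding proteins that act on the early membrane. Wipi1 was weak, at 1.02, 1.21 and 2.13 FPKM in WT, 8.65, 1.14 and 4.30 in Cxcl10-/- and 2.56, 1.57 and 2.72 in Cxcr3-/- (1.40 ± 0.78, adjusted p = 0.298 in Cxcl10-/- against WT). Atg13, whose product is a subunit of the ULK complex, ranged from 0.29 to 5.46 FPKM within the Cxcl10-/- group alone.

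The 5 genes of the conjugation machinery, none of which passed, had mixed signs. Atg3, the gene of the E2-like enzyme that joins ATG8 proteins to lipid, was at 34.1, 27.2 and 38.0 FPKM in WT, 24.1, 38.6 and 16.0 in Cxcl10-/- and 37.9, 41.2 and 37.6 in Cxcr3-/-. The WT and Cxcl10-/- libraries overlapped (-0.44 ± 0.29, adjusted p = 0.389). Between the knockouts the difference of 0.61 ± 0.29 (adjusted p = 0.208) became 0.97 (adjusted p = 0.0392) without Cxcl10-/- replicate 2. Atg5 and Atg12, whose products form a conjugate, differed by -0.55 ± 0.35 and -0.74 ± 0.42 in Cxcl10-/- against WT (adjusted p = 0.361 and 0.312). Atg16l1, whose product places that conjugate on the membrane, was at 1.95, 2.10 and 4.05 FPKM in WT and 5.55, 8.01 and 9.18 in Cxcl10-/- without overlap, but did not pass (1.41 ± 0.56, adjusted p = 0.144). Atg7, the gene of the E1-like enzyme, was at 1.81, 1.22 and 2.49 FPKM in WT, 1.48, 2.92 and 5.58 in Cxcl10-/- and 2.64, 2.50 and 2.31 in Cxcr3-/-.

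Within the ATG8 family, Map1lc3b differed between the knockouts. Map1lc3b (ENSMUSG00000031812, chr8:121590361-121598760, plus strand) stood at 614, 556 and 547 FPKM in WT, 859 to 1056 in Cxcl10-/- (the middle library at 923) and 315, 432 and 457 in Cxcr3-/-. The 3 genotypes did not overlap, with Cxcl10-/- highest and Cxcr3-/- lowest. Map1lc3b was 1.98-fold lower in Cxcr3-/- than in Cxcl10-/- (-0.98 ± 0.17, adjusted p = 0.00608), a call that held in all 21 alternatives. Its differences from WT did not pass: 0.49 ± 0.17 in Cxcl10-/- (adjusted p = 0.101) and -0.50 ± 0.17 in Cxcr3-/- (adjusted p = 0.667). The Cxcl10-/- difference passed in 5 alternatives, DESeq2 (adjusted p = 0.0498) and all 3 limma settings among them, with adjusted p from 0.0151 to 0.273 over the 21. Its size depended on the scale, as limma put it at 0.72 on log2(FPKM + 1) and at 0.49 after quantile normalization.

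None of the other 4 ATG8 genes passed in edgeR. Gabarap was at 211, 218 and 199 FPKM in WT, 241, 314 and 264 in Cxcl10-/- and 219, 222 and 226 in Cxcr3-/- (0.30 ± 0.17, adjusted p = 0.318 in Cxcl10-/- against WT). Gabarapl1 was at 33.8 to 43.4 FPKM in WT, 52.0 to 55.0 in Cxcl10-/- and 37.6 to 39.0 in Cxcr3-/- (0.39 ± 0.19, adjusted p = 0.246). Both had their highest libraries in Cxcl10-/-. Gabarapl2 instead was level between WT (114 to 136 FPKM) and Cxcl10-/- (112 to 145) and lower in each Cxcr3-/- library (85.3, 105 and 87.8), with -0.53 ± 0.17 against WT (adjusted p = 0.659). With GC and length offsets it passed between the knockouts (-0.58, adjusted p = 0.0353). Map1lc3a, the gene of LC3A, was at 4.19 to 6.69 FPKM in the WT and Cxcr3-/- libraries and at 10.7, 9.23 and 0.23 in Cxcl10-/- (0.25 ± 0.96, adjusted p = 0.907), on 4 to 161 counts per library.

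As a share of the summed FPKM of the 5 ATG8 genes, Map1lc3b made up 60.0 ± 1.28% in WT (SD, n = 3), 67.2 ± 3.71% in Cxcl10-/- and 52.4 ± 4.47% in Cxcr3-/-. The share of Gabarap was 21.9 ± 0.991%, 19.4 ± 2.06% and 29.5 ± 3.01% in the same order. The family's summed level was 910 to 1002 FPKM in WT, 1290 to 1484 in Cxcl10-/- and 664 to 816 in Cxcr3-/-. These sums, which Map1lc3b dominates, did not overlap between the genotypes.

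**Figure D4:**
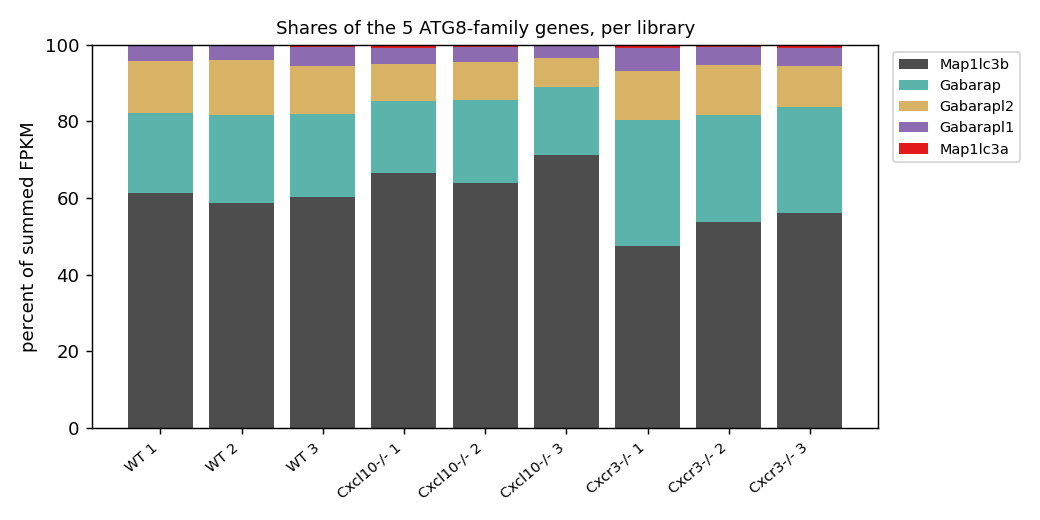
Share of each ATG8-family gene in their summed FPKM (percent, stacked to 100), with 1 bar per library. The Map1lc3b share is 63.8 to 71.2% in the Cxcl10-/- bars, 58.7 to 61.3% in WT and 47.4 to 56.0% in Cxcr3-/-.

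The cargo receptors Sqstm1, which encodes p62, and Optn, which encodes optineurin, did not pass. Sqstm1 was at 54.7, 73.1 and 60.7 FPKM in WT, 83.9, 74.9 and 85.3 in Cxcl10-/- and 67.8, 74.8 and 89.4 in Cxcr3-/-. Its WT and Cxcl10-/- libraries were apart by a narrow margin (0.29 ± 0.21, adjusted p = 0.448), while those of WT and Cxcr3-/- overlapped (0.27 ± 0.22, adjusted p = 0.932). Optn was at 4.02, 1.36 and 2.93 FPKM in WT, 0.34, 0.76 and 5.91 in Cxcl10-/- and 3.27, 2.92 and 2.95 in Cxcr3-/-, and its Cxcl10-/- libraries spanned the values of the other 6.

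Set side by side, the lysosomal members had a median log2 fold change of 0.37 and the autophagy members one of 0.27 in Cxcl10-/- against WT, beside 0.06 over all genes tested. Of the members, 27 of 40 were above 0, as were 10 of the 13 enzymes and 5838 of all 10866 genes. By role the medians were 0.37 for the enzymes, 0.30 for membrane and lipid-handling genes, 0.28 for initiation, -0.44 for conjugation and 0.30 for the ATG8 family. In Cxcr3-/- against WT the lysosomal and autophagy medians were -0.08 and 0.04, beside 0.02 over all genes. Between Cxcr3-/- and Cxcl10-/- they were -0.40 and -0.13, beside -0.05 over all genes, and that of the autophagy members turned to 0.13 after quantile normalization. Quantile normalization also took the autophagy median in Cxcl10-/- against WT to 0.04. With GC and length offsets the median of all genes shifted to 0.23 in Cxcl10-/- against WT, next to 0.35 for the lysosomal and 0.28 for the autophagy members. Without Cxcl10-/- replicate 2 the autophagy median in Cxcl10-/- against WT was 0.13, and without Cxcl10-/- replicate 3 the lysosomal median between the knockouts was -0.23. No test of lysosomal against autophagy genes was made.

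Further genes of the same pathways were taken from 10 lists, of which 213 of 226 genes could be tested. In Cxcl10-/- against WT, 9 passed higher and 9 lower, 8.45% of them beside 7.22% of all genes, against 0 in Cxcr3-/- against WT in edgeR (18 at an unadjusted p under 0.05, 1 of 42 with an adjusted p called by DESeq2 and 0 by limma). Between Cxcr3-/- and Cxcl10-/-, 9 passed higher and 14 lower, 10.8% beside 10.5% of all genes. Vcp, the gene of an ATPase that extracts ubiquitinated proteins and acts in clearing damaged lysosomes, rose from 41.1 ± 3.32 to 84.3 ± 8.70 FPKM (SD, n = 3) in Cxcl10-/- (0.95 ± 0.16, adjusted p = 0.00635). Ap1b1, which encodes a subunit of the adaptor that sorts enzymes toward lysosomes, rose from 2.55 ± 0.36 to 11.0 ± 2.88 FPKM. Stk11, the gene of the kinase LKB1 upstream of AMPK, went from 10.8 ± 1.95 to 26.1 ± 7.48 FPKM, and Sec62, which encodes a receptor for autophagy of the endoplasmic reticulum, from 73.8 ± 4.90 to 131 ± 29.2 FPKM. Vcp passed without any 1 of the libraries. The adjusted p of Ap1b1 was 0.0567, 0.0544 and 0.0512 without WT replicates 1, 2 and 3, and that of Sec62 was 0.117, 0.11 and 0.122. For Stk11 it was 0.118, 0.124 and 0.104 without those, and 0.0546 without Cxcl10-/- replicate 1. Sec62 also missed the threshold without Cxcl10-/- replicate 3 (0.0718).

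Among those that fell in Cxcl10-/-, Ncoa4 had the smallest p. Ncoa4 encodes the receptor that takes ferritin into autophagosomes. It stood at 113, 137 and 126 FPKM in WT, 64.9, 82.1 and 54.6 in Cxcl10-/- and 190, 146 and 178 in Cxcr3-/-, without overlap between the 3 genotypes. The differences were -0.98 ± 0.16 in Cxcl10-/- against WT (adjusted p = 0.00644) and 1.37 ± 0.16 in Cxcr3-/- against Cxcl10-/- (adjusted p = 0.000991). Fundc1, the gene of a mitophagy receptor, fell from 108 ± 17.2 to 50.7 ± 13.8 FPKM (-1.32 ± 0.26, adjusted p = 0.0115). Vps41, which encodes a tether subunit for fusion with lysosomes, fell from 24.0 ± 1.25 to 9.44 ± 3.72 FPKM, and Seh1l, a gene of the GATOR complex that senses amino acids at the lysosome, from 31.7 ± 3.27 to 15.4 ± 0.239 FPKM. With GC and length offsets, the calls of Fundc1 (adjusted p = 0.359) and Seh1l (0.137) ended, as did that of Stk11 (0.0816). Without WT replicate 1 or WT replicate 3, Fundc1 was at an adjusted p of 0.0522 or 0.0562 and Vps41 at 0.0502 or 0.0513.

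Between Cxcr3-/- and Cxcl10-/-, the pathway genes with the smallest p were Ncoa4, Seh1l, Ids and Vps41 among those higher in Cxcr3-/-, and Fuca1, Bloc1s1, Atp6v0b and Stk11 among those lower. Ids and Fuca1 encode lysosomal hydrolases of glycosaminoglycans and of fucosylated glycans. Ids was at 3.91 ± 0.83 FPKM in Cxcl10-/- and 12.4 ± 4.40 in Cxcr3-/- (1.69 ± 0.36, adjusted p = 0.0135), and Fuca1 at 28.8 ± 5.87 and 10.7 ± 2.05 (-1.40 ± 0.29, adjusted p = 0.0129). Atp6v0b, which encodes a subunit of the proton pump that acidifies lysosomes, was at 268 ± 20.0 FPKM in Cxcl10-/- and 128 ± 44.6 in Cxcr3-/- (-1.04 ± 0.24, adjusted p = 0.0178). Bloc1s1, a gene of lysosome positioning complexes, was at 462 ± 31.1 and 257 ± 41.8 FPKM. Ncoa4 and Seh1l passed without any 1 of the libraries. The other 6 missed the threshold without Cxcr3-/- replicate 1, with adjusted p of 0.0689 for Ids, 0.0641 for Vps41, 0.0595 for Fuca1, 0.0627 for Bloc1s1, 0.0764 for Atp6v0b and 0.0581 for Stk11. Without Cxcr3-/- replicate 3, Vps41 (0.0766), Atp6v0b (0.0726) and Stk11 (0.0671) missed it as well. With GC and length offsets, Seh1l (0.0867), Ids (0.0581), Vps41 (0.0646), Bloc1s1 (0.102) and Atp6v0b (0.0651) missed it.

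Markers of some other cells, and immediate-early genes, were higher in the Cxcl10-/- group. The counts below stand beside 3.52% of all genes tested called higher in Cxcl10-/- against WT. Of 12 endothelial markers 6 were called higher. Their summed level was 525 to 766 FPKM, against 61.6 to 93.7 in WT and 65.6 to 127 in Cxcr3-/-. Fabp4 was the highest of them, at 287 to 455 FPKM in Cxcl10-/- against 5.67 to 18.2 in WT. Of 10 stromal and bone markers 4 were testable, and 3 were called higher. The list summed to 30.1 to 238 FPKM, against 0.69 to 3.95 in WT and 1.37 to 1.99 in Cxcr3-/-. The filter took the mean over all 9 libraries, so markers near 0 in WT and Cxcr3-/- could become testable only through Cxcl10-/-. Such counts were thus partly set by the filter. Of 10 immediate-early genes 9 were testable, and all 9 were called higher (323 to 643 FPKM, against 44.8 to 52.4 in WT). Of 8 erythroid markers 6 were testable, and 1 was called higher (90.1 to 635 FPKM, against 51.3 to 97.5 in WT). No neutrophil (3 of 8 testable), B cell (2 of 7) or osteoclast marker (1 of 7) passed in edgeR. All of these testable markers had log2 fold changes above 0, S100a8 and Igll1 alone with an unadjusted p under 0.05. Summed neutrophil markers were 14.5 to 180 FPKM in Cxcl10-/- and 11.1 to 22.8 in WT. For B cell markers the sums were 39.3 to 146 and 50.55 to 71.4 FPKM, and for osteoclast markers 0 to 5.21 and 0.76 to 2.98. The summed macrophage and monocyte markers were 407 to 462 FPKM in Cxcl10-/- and 560 to 690 in WT, mostly Lyz2. Adgre1 and Vsig4 were listed at 0 in all Cxcl10-/- libraries and Marco at 0, 0 and 0.03 FPKM. Of the 15 markers listed, 7 were testable, with 4 above 0 and 3 below (median log2 fold change 0.44). Only Mrc1 was called higher. The summed LT-HSC markers were 774 to 899 FPKM in Cxcl10-/- and 787 to 899 in WT, with Kit called lower. Cd48, which the sort excludes, was at 17.8, 20.1 and 8.76 FPKM in WT and 0, 7.94 and 0 in Cxcl10-/- (log2 fold change -2.69). Flt3, the gene of CD135, which the sort also excludes, went the other way (0.90), higher in Cxcl10-/- without overlap. Neither passed in edgeR. Between Cxcr3-/- and Cxcl10-/-, 5.41% of all genes were called lower. Beside that stood 5 of 12 endothelial, 3 of 4 stromal and bone, 3 of 6 erythroid and 8 of 9 immediate-early genes. Of the macrophage and monocyte markers 1 of 7 was called lower there, and no neutrophil, B cell or osteoclast marker was. The filter partly set these counts as well. The part of other cells, of the immediate-early response and of the lower mitochondrial share in the differences of Ctsl, Lamp2, Ulk2, Npc2 and Map1lc3b was not tested.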

How the data were processed

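LT-HSC libraries of 3 WT, 3 Cxcl10-/- and 3 Cxcr3-/- mice were analysed from the deposited gene table. Per the file headers it holds FPKM and counts for each library. The deposited counts, 87.1% of them whole numbers, were taken as the authors' estimated counts, as RSEM gives them. Tools listed in the submitters' processing notes are RSEM, StringTie, HISAT2 and fastp, without versions. Build, annotation, strand setting and FPKM denominator were not given in the sources used here. Totals ran from 12098498 to 17904629 counts per library, and precision also rests on the spread between the 3 libraries of a genotype.

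Counts were rounded. The 10866 genes whose mean FPKM was 1 or more entered the test with edgeR 4.0.16 in R 4.3.3 (quasi-likelihood test, TMM factors, 1 mean per genotype, all 9 libraries). P-values were Benjamini-Hochberg adjusted over all genes tested, with a threshold of 0.05. The standard error is the absolute log2 fold change divided by the square root of F. The fit was tested on simulated data. Alternatives were DESeq2 1.42.0, other scalings, limma 3.58.1 on log2(FPKM + 1) and log2(FPKM + 0.1) of the deposited FPKM, other filters, only the genotypes compared, GC and length offsets (GENCODE M21), a replicate block and leaving out each library. No pairing was used in the main fit, because replicate numbers are not stated to mark a shared litter or day. Libraries sharing a number did not deviate together (9 pairs, r from -0.0836 to 0.0191, with 0.1 required). With 3 libraries per genotype, that check cannot exclude a shared batch. Gene positions are from GENCODE M21, where 40 of 40 identifiers were found, and promoter sequences from RefSeq (GRCm38.p6).

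All 40 members could be named. Values per library are given for members that passed, the most abundant of each role and the weak ones, and other pathway genes are up to 4 per direction and comparison by p. Members and lists were chosen with earlier results of these data known, and no set was tested. Markers of LT-HSCs, macrophages, endothelium, stroma and bone, osteoclasts, neutrophils, B cells, erythroid cells and immediate-early genes were looked up for the makeup of the libraries.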

Additional observations from a re-analysis of the deposited data

How the results depend on the processing

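Each comparison was refitted under 21 alternatives. For the 40 members this gave 2488 values, of which 2438 kept their side of the threshold, 25 lost a call, 24 gained one and 1 reversed. Of the 2438, 139 changed sign, none of them called, in 43 of the 120 pairs of member and comparison, such as Atg13 and Map1lc3a in Cxcl10-/- against WT. DESeq2 gave an adjusted p to 8 of 40 members in Cxcr3-/- against WT. Ctsl kept its call in both comparisons throughout, and Map1lc3b its call between the knockouts. In Cxcl10-/- against WT, 3 members, 18 pathway genes and 785 genes were called. DESeq2 gave 6 members and 1498 genes, no filter 5 and 1183, and only the 2 genotypes 10 pathway genes and 414 genes. GC and length offsets gave 11 pathway genes. In Cxcr3-/- against WT, DESeq2 gave 78 genes and 1 pathway gene and no filter 38 genes, against 0. Between Cxcr3-/- and Cxcl10-/-, with 5 members, 23 pathway genes and 1142 genes called, DESeq2 gave 35 pathway genes and 1814 genes, only the 2 genotypes 3, 4 and 423, and quantile normalization 3 members. Quantile normalization took the autophagy median to 0.044 in Cxcl10-/- against WT and to 0.13 between the knockouts. The cause of these differences was not tested.

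Replicate numbers are not stated to pair the samples. With the replicate block, 442 genes and 7 pathway genes were called in Cxcl10-/- against WT. The block with GC and length offsets gave 512 genes, 6 pathway genes and 1 member there, and 754, 14 and 3 between the knockouts.

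Leaving out 1 library at a time gave 193 to 1003 genes, 2 to 6 members and 3 to 20 pathway genes in Cxcl10-/- against WT, lowest without a WT library (229, 193 and 253 genes without replicates 1, 2 and 3). It gave 0 to 6 genes in Cxcr3-/- against WT, the 6 without Cxcr3-/- replicate 2, and 423 to 1407 genes, 3 to 7 members and 3 to 29 pathway genes between the knockouts, lowest without Cxcr3-/- replicate 1. Lysosomal medians lay between 0.27 and 0.41 in Cxcl10-/- against WT, -0.13 and -0.046 in Cxcr3-/- against WT and -0.53 and -0.23 between the knockouts. Autophagy medians lay between 0.13 and 0.30, -0.018 and 0.16, and -0.19 and -0.092 in the same order. Gla turned from 0.53 to -6.45 (adjusted p = 0.0357) without Cxcl10-/- replicate 3, and its highest value was 1.31, without WT replicate 1. Atp6ap2, a subunit gene of the proton pump called lower in Cxcl10-/- (-0.69), turned to 0.0077 (adjusted p = 0.984) with GC and length offsets and to 0.0010 (adjusted p = 0.998) with the block added. Genes at few counts, such as Gla, Tfeb and Map1lc3a, also varied widely between libraries of a genotype, so their differences are imprecise.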
